A study of Homo sapiens with 12 samples.

Results

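ZNF608, DTNA and RIPOR2 are 3 of the 19970 protein-coding genes annotated on chromosomes 1 to 22 and X, and among genes with a gain of both H2A.Z and acetylated H2A.Z (H2A.Zac) at their 5′ end they had the highest log10 likelihood ratios for more H2A.Zac in cells whose EP400 lacks the domains that bind TRRAP. They were selected on the deposited values themselves, for a high ratio of a gained H2A.Zac region within 1 kb of a transcription start site (TSS) that also had a gained H2A.Z region within 1 kb. Their places in that order depend on which TSSs of a gene are counted and how wide the window is. The count at 5′ ends was chosen after seeing the data. With the widest gained region instead, ZNF608, DTNA and RIPOR2 ranked 165, 479 and 515. RIPOR2 ranked 3 at the 5′ ends of genes, 4 at every TSS and 5 with a window of 2 kb, and with canonical TSSs alone neither RIPOR2 nor DTNA had a rank. Everything measured in the same comparison is therefore given as a description, with no test. Of the 158028 deposited regions, 152 lay over the 3 gene bodies with 100 kb to each side, 82 of H2A.Z and 70 of H2A.Zac.

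The ChIP-seq was done in K562, an established human chronic myeloid leukemia line in which both copies of endogenous EP400 carry a degradation tag. All cells were treated with 500 nM dTAGV-1 for 24 h, so endogenous EP400 was degraded in both arms, and they expressed from the AAVS1 locus either WT EP400 or ΔTRRAP EP400, which lacks the SANT and hydrophobic domains that hold TRRAP. Each line was a single clone, so clone and genotype cannot be told apart. The 12 libraries were 2 replicates each of input, H2A.Z and H2A.Zac in WT and in ΔTRRAP. The authors merged the replicates before comparing the lines, and the deposited lists give a single log10 likelihood ratio per region and no read count, so the depth is unknown and no spread between replicates can be given.

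H2A.Z is a variant of histone H2A that marks promoters and enhancers. The TIP60 complex, built on the EP400 scaffold, exchanges H2A for H2A.Z and acetylates it, and its TRRAP subunit is known as the docking surface for DNA-binding activators. A region is called gained where the ratio favours ΔTRRAP, lost where it favours WT, both with a ratio of at least 3, and unchanged below that. The ratio depends on read depth as well as on the size of a change, and is not a fold change. The lists hold only regions that passed the authors' filters. A stretch without a listed region of a mark may therefore still carry that mark.

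ZNF608 encodes a zinc finger protein and is the paralog of ZNF609. DTNA encodes alpha-dystrobrevin, a cytoplasmic member of the dystrophin complex, which links the actin cytoskeleton to the cell membrane. RIPOR2 encodes an inhibitor of the small GTPase RhoA that is needed in the hair cells of the inner ear. In GENCODE release 44 (hg38), ZNF608 (ENSG00000168916) lies at chr5:124636913-124748807 on the minus strand, DTNA (ENSG00000134769) at chr18:34493291-34891844 on the plus strand, and RIPOR2 (ENSG00000111913) at chr6:24804282-25042170 on the minus strand. The genes are 111.9, 398.6 and 237.9 kb long and have 10, 65 and 17 annotated transcripts.

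All 3 genes have more than one annotated promoter, and the gain lay at the 5′-most one in each, and at ZNF608 at the canonical one as well. The 5′-most promoter is here that of the protein-coding transcript that starts farthest 5′ (ZNF608-205, DTNA-253 and RIPOR2-205), and at RIPOR2 a transcript with no defined coding sequence starts slightly before it. From these starts the canonical transcript begins 2.2 kb farther in at ZNF608, 217.0 kb at DTNA and 106.1 kb at RIPOR2. The sequences of the 5′-most promoters are shown because gained regions of both marks overlap each of them. At ZNF608 the overlapping regions are those upstream of the TSS, not the pair with the highest ratios, and at DTNA 46 of the 300 bases lie in the H2A.Z region. Each runs 5′ to 3′ over the 250 bases before the TSS of the named transcript and the 50 bases that begin with the TSS. Coordinates are in hg38, and capitals mark matches to the 7 motifs searched.
ZNF608-205 (chr5:124748758-124749057, minus strand): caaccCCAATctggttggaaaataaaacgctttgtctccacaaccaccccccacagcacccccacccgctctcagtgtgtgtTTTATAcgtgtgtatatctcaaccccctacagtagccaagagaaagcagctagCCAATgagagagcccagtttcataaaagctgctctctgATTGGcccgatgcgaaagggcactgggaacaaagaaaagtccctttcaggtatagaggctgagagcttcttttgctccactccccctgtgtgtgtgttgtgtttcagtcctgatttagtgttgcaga
DTNA-253 (chr18:34493041-34493340, plus strand): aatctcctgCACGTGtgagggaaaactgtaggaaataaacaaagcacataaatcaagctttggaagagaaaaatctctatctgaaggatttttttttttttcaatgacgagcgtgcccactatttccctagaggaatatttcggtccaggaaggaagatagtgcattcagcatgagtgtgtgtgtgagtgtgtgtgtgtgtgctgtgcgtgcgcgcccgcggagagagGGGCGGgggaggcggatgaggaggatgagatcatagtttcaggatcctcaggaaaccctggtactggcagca
RIPOR2-205 (chr6:25041969-25042268, minus strand): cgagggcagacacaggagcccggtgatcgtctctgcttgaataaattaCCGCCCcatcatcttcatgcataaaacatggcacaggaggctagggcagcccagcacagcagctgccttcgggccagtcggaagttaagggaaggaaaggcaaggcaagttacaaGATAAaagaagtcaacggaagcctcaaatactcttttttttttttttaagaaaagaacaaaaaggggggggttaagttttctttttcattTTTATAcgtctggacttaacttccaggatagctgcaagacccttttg

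The promoters of the canonical transcripts of DTNA and RIPOR2 are shown for contrast, since they held no base of any region.
DTNA-207 (chr18:34710048-34710347, plus strand): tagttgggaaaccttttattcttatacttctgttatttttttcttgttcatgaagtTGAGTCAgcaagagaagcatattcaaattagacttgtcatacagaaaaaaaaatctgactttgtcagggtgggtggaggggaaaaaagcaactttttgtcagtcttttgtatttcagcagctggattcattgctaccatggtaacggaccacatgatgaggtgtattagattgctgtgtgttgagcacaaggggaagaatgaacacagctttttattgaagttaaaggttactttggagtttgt
RIPOR2-211 (chr6:24935911-24936210, minus strand): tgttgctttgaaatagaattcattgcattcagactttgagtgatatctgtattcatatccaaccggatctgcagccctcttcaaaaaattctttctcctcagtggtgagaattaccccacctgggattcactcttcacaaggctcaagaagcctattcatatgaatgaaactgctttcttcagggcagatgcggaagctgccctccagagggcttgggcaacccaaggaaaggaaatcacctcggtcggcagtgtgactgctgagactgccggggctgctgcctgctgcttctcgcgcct

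In the 300-base windows the 5′-most promoters had less G and C than most. GC content was 49.3% at ZNF608-205, 48.0% at DTNA-253 and 45.3% at RIPOR2-205, with 5, 11 and 8 CpG dinucleotides. Over the promoters of the canonical transcripts of all 19970 genes, the same 300-base window had a median GC content of 63.7% and a median of 23 CpGs. Only 15.1%, 13.3% and 10.4% of those promoters had a lower GC content than ZNF608-205, DTNA-253 and RIPOR2-205, respectively. Among the 2204 genes with both marks gained at the canonical TSS the median GC content was 65.3%, so the 3 windows lay below the middle of the gained promoters too. Over the gained regions themselves DTNA was different, with 63.7% GC in its promoter H2A.Zac region and 69.1% in the H2A.Z region, while those of RIPOR2 had 44.5% and 44.2%, and those of ZNF608 between 43.2% and 44.5%. The canonical promoter of DTNA, DTNA-207, which held no region, had the lowest GC content of the 5 shown, with 36.7% GC and 1 CpG.

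Of the motifs searched on both strands, the E-box CACGTG was found in 8.75% of all promoters and the GATA motif, spelled GATAA, in 17.4%. The AP-1 motif was spelled TGANTCA and was found in 5.44%, and the GC box GGGCGG was found in 61.3%. The CCAAT box, searched by those letters, was found in 36%, the TATA box, spelled TATAAA, in 9.73%, and the E2F motif, spelled TTTNNCGC, in 8.77%. No motif was found in all 3 of the 5′-most promoters. ZNF608-205 held 3 CCAAT boxes, at -245, -115 and -77, the last on the reverse strand, and a reverse TATAAA at -168. DTNA-253 held an E-box at -241 and a GC box at -22. RIPOR2-205 held GATAA at -87, a reverse GC box at -202 and a reverse TATAAA that starts at base 4, counting the TSS as the first base. Among the canonical promoters shown, DTNA-207 held an AP-1 match at -194, and RIPOR2-211 held none. These matches describe letters in the window and were not tested for binding.

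At the 5′ end of DTNA, the gained H2A.Zac region at chr18:34493041-34494722 was 1682 bp wide and had a log10 likelihood ratio of 120.2. A gained H2A.Z region of 1195 bp lay within it at chr18:34493295-34494489, with a ratio of 11.6. Both covered parts of exon 1 and intron 1 of DTNA-253, and the H2A.Zac region held 19 annotated transcript starts. By H2A.Z alone the gene ranked 68, against 1 by H2A.Zac, the value it was selected on, among the 2596 genes with both marks gained at a TSS.

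ZNF608 had a pair of gained regions on each side of its 5′-most TSS. Inside the gene, H2A.Zac was gained at chr5:124745880-124748315 with a ratio of 90.7 and H2A.Z at chr5:124746399-124748469 with a ratio of 24.99. Both covered the canonical TSS. Upstream, H2A.Zac was gained at chr5:124748904-124749990 with a ratio of 65.5 and H2A.Z at chr5:124748894-124750006 with a ratio of 22.3. Between the regions, the TSS of ZNF608-205 lay in a stretch without any region, 424 bp long in H2A.Z and 588 bp long in H2A.Zac. ZNF608 was the member with the highest H2A.Z ratio, at rank 7 of 2596.

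At RIPOR2 the 5′-most TSS lay inside both regions. H2A.Zac was gained at chr6:25040875-25042478, over 1604 bp, with a ratio of 78.4. H2A.Z was gained at chr6:25041049-25042478, over 1430 bp, with a ratio of 10.8 and rank 89. Both regions ended at the same base upstream and covered parts of exon 1 and intron 1 of RIPOR2-205.

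Set against all genes, 16.2% had a gained H2A.Z region within 1 kb of a TSS, 41.6% a gained H2A.Zac region, and 13.0% both at the same TSS. Over those 2596 genes the median ratio was 7.57 for H2A.Zac and 5.25 for H2A.Z. With the annotated 5′ end of each gene taken as its TSS, DTNA, ZNF608 and RIPOR2 took the first 3 places, and the next were TAF11L3 at 72.7, GNG11 at 70.0 and ZDHHC21 at 68.0. ZNF829 and ZNF568, which share a region, followed at 67.9. With every annotated TSS, STC2, which was named after its values were seen, stood between ZNF608 and RIPOR2 with 78.5, at an internal TSS, and had the highest H2A.Z ratio of all, 53.4. The genes just inside and just outside the choice therefore differed by little, and RIPOR2 ranked 4 on that count.

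**Figure D1:**
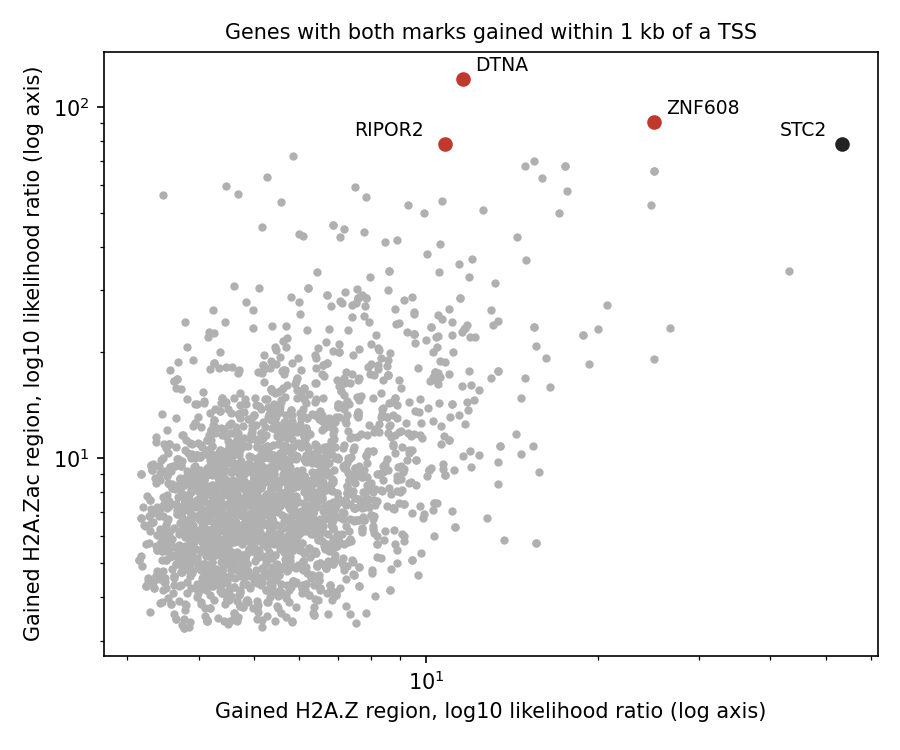
Log10 likelihood ratio of the gained H2A.Z region (horizontal) and the gained H2A.Zac region (vertical) at the TSS of the 2596 protein-coding genes with both, on log axes. DTNA, ZNF608 and RIPOR2 are in red and STC2 in black; DTNA is highest for H2A.Zac at 120.2 and STC2 highest for H2A.Z at 53.4.

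The gain reached well past the promoter of ZNF608. Over its locus of 311.9 kb there were 31 H2A.Z regions, of which 21 were gained, 10 unchanged and 0 lost, and 23 H2A.Zac regions, of which 21 were gained, 2 unchanged and 0 lost. Over all regions of the series, 14.1% of H2A.Z and 26.3% of H2A.Zac regions were gained. Among changed regions alone, the gained share was 41.6% for H2A.Z and 50.4% for H2A.Zac, against 100% for each mark at ZNF608 (Wilson 95% confidence interval, 84.5 to 100%, counting error only). Since the gene was selected on this comparison, nothing is read from the difference.

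Upstream of ZNF608, in DNA between genes, 6 H2A.Zac regions were all gained. The farthest, with its nearest edge 96.92 kb from the 5′ TSS, had a ratio of 49.9 and lay over a gained H2A.Z region with 9.83. A region 93.0 kb upstream had 36.4 and no H2A.Z under it. Closer in, a cluster held gained H2A.Zac at 58.62, 48.47 and 43.12 kb upstream, with ratios of 13.6, 40.8 and 16.2. The middle one was 3379 bp wide and nearly the same stretch was gained for H2A.Z, with 12.3. The lists also differed by mark in that cluster. Gained H2A.Z regions at 57.15 and 55.79 kb upstream, with 9.43 and 14.8, had no listed H2A.Zac region on them.

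Within ZNF608, the regions past the promoter lay in introns 2 and 3 of ZNF608-205, apart from those at the 3′ end. A gained H2A.Z region 13.09 kb inside, with 12.9, stood alone, and so did a gained H2A.Zac region 19.26 kb inside, with 28.1. Another gained H2A.Zac region without H2A.Z, 3179 bp wide and with 15.1, lay 91.62 kb inside. Other gained H2A.Zac regions farther in lay over gained or unchanged H2A.Z, although the one at 88.51 kb did so for 22.4% of its length only. The gained H2A.Z regions there had ratios of 5.88 at 23.21 kb, 6.81 at 34.61 kb, 4.24 at 68.75 kb, 8.15 at 96.42 kb and 11.3 at 97.1 kb. All 10 unchanged H2A.Z regions of the locus were covered by gained H2A.Zac for at least 25% of their length. At the 3′ end, exon 6 of the canonical transcript held both marks gained, H2A.Zac with 21.9 and H2A.Z with 7.71, at the start of a transcript with no defined coding sequence.

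Downstream of ZNF608 all 4 H2A.Zac and all 5 H2A.Z regions were gained. H2A.Zac had ratios of 29.8 at 117.24 kb, 30.7 at 126.94 kb, 38.5 at 151.12 kb and 29.9 at 192.3 kb from the 5′ TSS. The region at 151.12 kb had no H2A.Z on it, while 148.69 kb from the TSS H2A.Z was gained alone with 24.1, nearly the ratio of the promoter. No other protein-coding gene has a TSS in this locus.

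**Figure D2:**
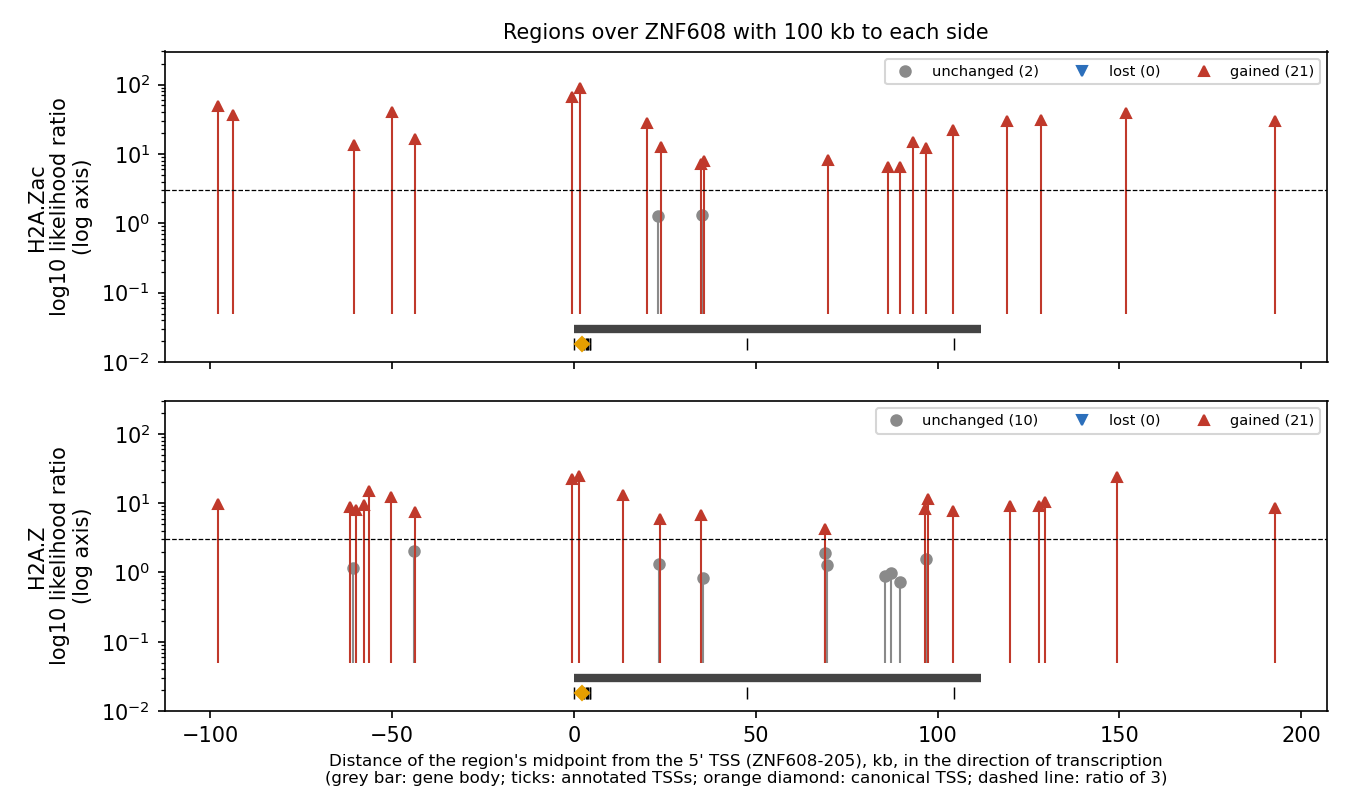
Log10 likelihood ratio (log axis) of each H2A.Zac region (top) and H2A.Z region (bottom) against distance in kb from the 5′ TSS of ZNF608, coloured by class. Gained regions (red, 21 of each mark) run from end to end and there is no lost region.

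DTNA showed the same direction with fewer regions of H2A.Z. Its locus of 598.6 kb held 22 H2A.Z regions, 13 gained, 9 unchanged and 0 lost, and 23 H2A.Zac regions, 19 gained, 4 unchanged and 0 lost. All changed regions of both marks were thus gained (77.2 to 100% for H2A.Z and 83.2 to 100% for H2A.Zac, counting error only).

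The highest ratios of the DTNA locus after that of the promoter lay upstream of the gene, in H2A.Zac regions without a listed H2A.Z region. A 1350-bp H2A.Zac region 2.79 kb before the TSS had 98.8, and a 973-bp region 74.35 kb before it had 85.5, and no H2A.Z region of any class overlapped either. At 97.93 and 92.37 kb upstream, gained H2A.Zac with 52.4 and 30.4 came with gained H2A.Z, with 10.7 and 7.88. Inside the gene, H2A.Zac was gained 64.08 kb from the TSS, with 60.5, at the start of another transcript, and 166.0 kb from it, with 47.5, in intron 1. Neither had an H2A.Z region.

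From there the lists were empty for 198.9 kb, over chr18:34660758-34859627, a stretch that holds the canonical TSS. At the 3′ end of the gene the classes were mixed. Near intron 16 of DTNA-253, H2A.Z was unchanged, with 0.706 and 0.100, and the H2A.Zac regions lying wholly on them were unchanged too, with 1.15 and 0.729. Short H2A.Zac regions next to these were gained, with 4.21 and 6.93. Gained H2A.Z followed at 373.93 kb from the TSS, with 5.91, and a gained H2A.Zac region of 1596 bp at 377.38 kb, with 16.3. A gained H2A.Zac region 381.68 kb from the TSS, with 29.7, overlapped exon 18 of the canonical transcript. Downstream, between 420.94 and 454.2 kb from the TSS, H2A.Zac and H2A.Z were gained together in a series of regions with H2A.Zac ratios from 10.5 to 30.3.

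**Figure D3:**
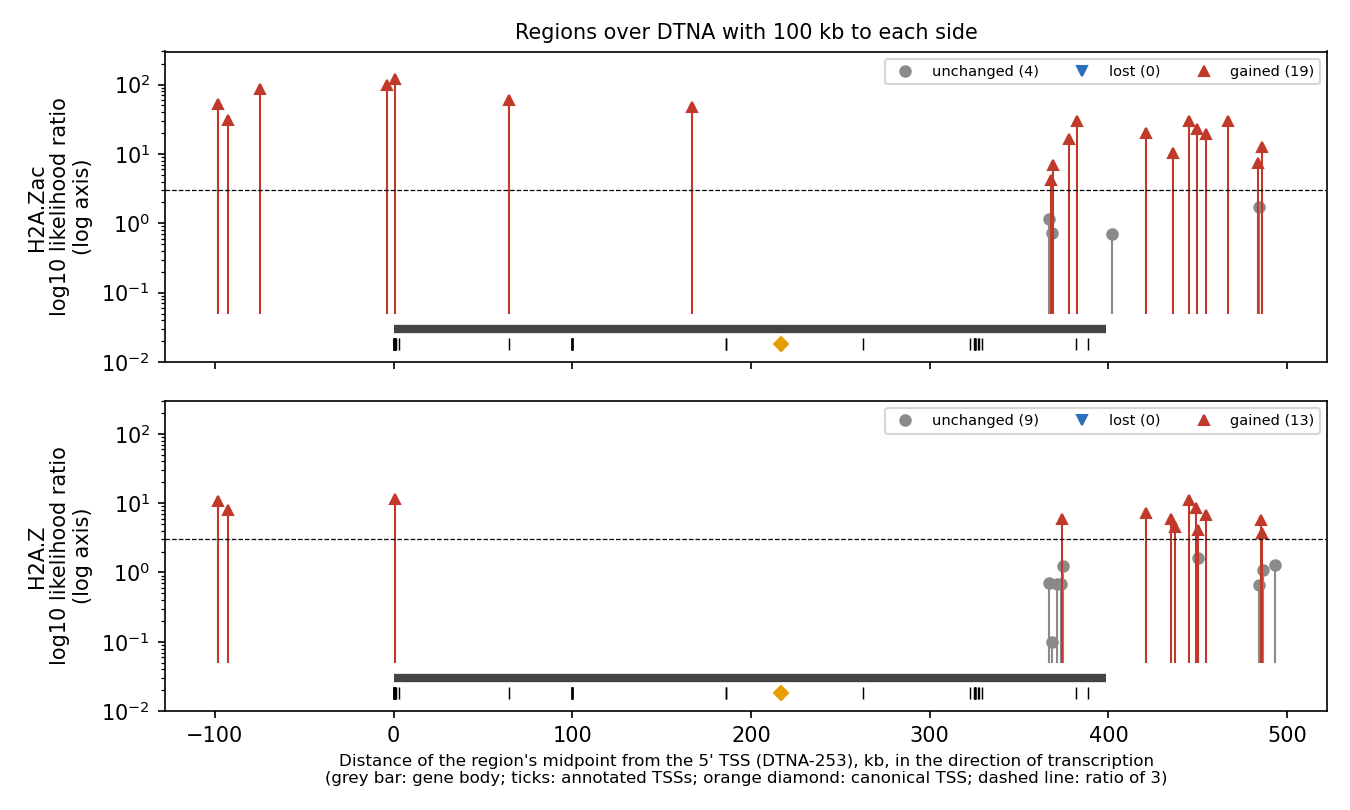
Log10 likelihood ratio (log axis) of each H2A.Zac region (top) and H2A.Z region (bottom) against distance in kb from the 5′ TSS of DTNA, coloured by class. The H2A.Zac ratios of 98.8 and 85.5 upstream have no H2A.Z region below them, and the canonical TSS (orange) sits in an empty stretch.

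With 100 kb to each side, RIPOR2 differed from the other genes in having lost regions, all of them beyond its 3′ end. Its locus of 437.9 kb held 29 H2A.Z regions, 8 gained, 6 lost and 15 unchanged, and 24 H2A.Zac regions, 14 gained, 2 lost and 8 unchanged. The gained share of changed regions was 57.1% for H2A.Z (32.6 to 78.6%) and 87.5% for H2A.Zac (64 to 96.5%). Over the series these shares were 41.6% and 50.4%. The intervals give counting error only and take regions as independent, although a peak can be split into several regions. RIPOR2 was also selected on this comparison, so nothing is read from the differences for either mark. In the gene body and upstream of it no region of either mark was lost.

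Around the 5′ end of RIPOR2, more H2A.Zac than H2A.Z regions were gained. This also held over the series, with 24844 gained H2A.Zac and 8965 gained H2A.Z regions. In intron 1 of RIPOR2-205, gained H2A.Zac regions 4.42 and 15.83 kb from the TSS had ratios of 42.7 and 26.0, and no H2A.Z region overlapped them. Smaller ratios followed at 31.05 and 31.52 kb, with 9.64 and 17.2, also without H2A.Z. At 34.14 kb H2A.Zac was gained with 9.37 over a gained H2A.Z region with 6.12. Upstream, a region 9.98 kb before the TSS had 33.0 without H2A.Z, and a region of 5361 bp, the widest gained one of the 3 loci, lay 93.2 kb before it with 28.1. Gained H2A.Z regions 95.76 and 96.78 kb before the TSS, with 6.71 and 6.36, lay wholly within that region.

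Inside RIPOR2, past the gained H2A.Zac region at 34.14 kb, no region was listed for 150.4 kb, over chr6:24856118-25006527. The empty stretch again held the canonical TSS. The rest of the gene body held unchanged regions only. Downstream, 22 H2A.Z regions (4 gained, 6 lost, 12 unchanged) and 15 H2A.Zac regions (6 gained, 2 lost, 7 unchanged) lay at and between the starts of GMNN, which encodes the replication licensing inhibitor geminin, and C6orf62. The lost H2A.Z regions had ratios from 3.87 to 7.24 and the lost H2A.Zac regions 7.15 and 7.30. Within 1 kb of the TSS of GMNN both marks had a gained region, with 5.67 for H2A.Z and 20.7 for H2A.Zac, but the H2A.Zac region that covers the TSS was unchanged, with 1.39. Within 1 kb of the TSS of C6orf62 the gained regions had 6.27 and 11.7, beside unchanged regions of both marks.

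**Figure D4:**
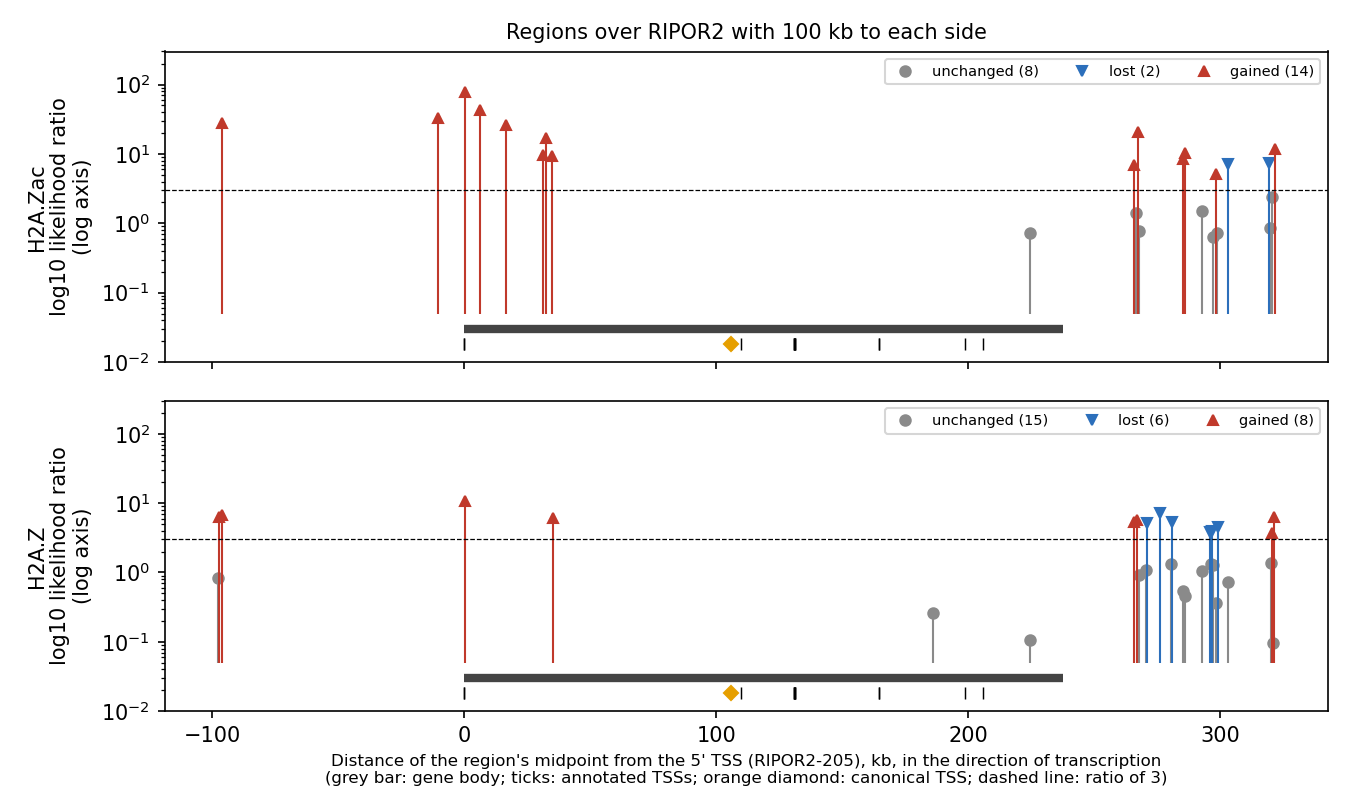
Log10 likelihood ratio (log axis) of each H2A.Zac region (top) and H2A.Z region (bottom) against distance in kb from the 5′ TSS of RIPOR2, coloured by class. The 8 lost regions (blue) all lie downstream of the gene body, and the middle of the gene is empty.

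The 3 loci differed in how much of their length was gained. Gained H2A.Zac regions covered 41.14 kb at ZNF608, 23.06 kb at DTNA and 21.62 kb at RIPOR2, and gained H2A.Z covered 24.46, 7.82 and 6.13 kb. ZNF608 thus had the most of both marks although its locus is the shortest. Their gained H2A.Zac regions were wide, with medians of 1826, 1235 and 1151 bp, against 664 bp for all gained H2A.Zac regions. Gained H2A.Z regions had medians of 1068, 419 and 727.5 bp, against 449 bp in the series, so those of DTNA were narrower. Only 2 of the 19970 loci built in the same way had more gained H2A.Z regions than ZNF608, and 17 and 181 had more than DTNA and RIPOR2. For H2A.Zac the numbers were 23, 83 and 431. The loci differ in length, which these numbers do not take into account.

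**Figure D5:**
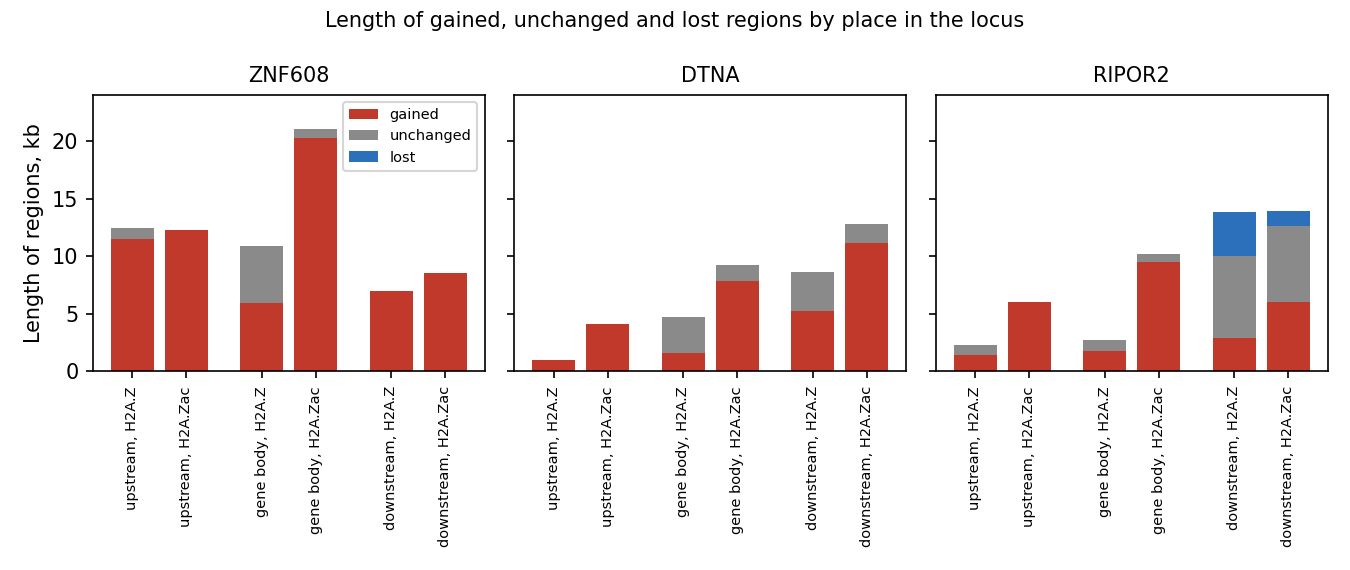
Length in kb of gained, unchanged and lost regions upstream of, within and downstream of each gene, for each mark. Gained length is highest in the gene body of ZNF608 for H2A.Zac (20.28 kb), and lost length appears only downstream of RIPOR2.

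Over the 3 loci, gained regions of one mark were compared with those of the other. Of the 42 gained H2A.Z regions, 37 (88.1%) had at least 25% of their length on gained H2A.Zac, against 65.8% of the 8965 gained H2A.Z regions of the series. Of the 54 gained H2A.Zac regions, 27 (50%) lay on gained H2A.Z in this way, 12 (22.2%) on unchanged H2A.Z and 0 on lost H2A.Z, against 18.7%, 45.9% and 0.0322% over the series, and a region can count under more than one class. No H2A.Z region at all overlapped 16 of them, 4 at ZNF608, 7 at DTNA and 5 at RIPOR2, and over the series this held for 39.0%. The genes were selected for a gain of both marks at a promoter, so nothing is read from these differences. The gained regions of the loci had a median GC content of 43.8% for H2A.Z and 43.1% for H2A.Zac, against 47.2% and 48.7% for all gained regions of the series. Unchanged regions of the same loci had 44.8% and 42.5%, against 52.2% and 50.5% in the series, so they were lower as well. Gained H2A.Z at RIPOR2, with a median of 48.8%, and the promoter of DTNA lay higher.

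Most of the annotated starts of these genes held no region. When TSSs within 2 kb of each other were joined, the 3 genes had 23 start groups. Of these, 7 had a region within 1 kb, each with gained H2A.Zac, 5 had both marks gained, and 16 had none. At ZNF608 3 of 4 groups had both gained, at DTNA 1 of 12 and at RIPOR2 1 of 7. Over all genes, 41.6% had gained H2A.Zac at a TSS and 13.0% both marks. Those shares are per gene, and no share of start groups over all genes is given, so nothing is read from these counts. Of the 5 groups, 4 rest on the promoter regions the genes were selected on, and 2 of these, at ZNF608, share regions. The canonical starts of DTNA and RIPOR2 were among the empty ones.

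Changed regions around the loci were mixed in direction. Within 2.5 Mb of the 5′ TSS but outside the locus, gained regions made up 54.8% of changed H2A.Z and 46.5% of changed H2A.Zac regions at ZNF608, 40% and 45.3% at DTNA, and 63.6% and 57.7% at RIPOR2. Over whole chromosomes these shares were 59% and 54.9% on chromosome 5 (ZNF608). They were 45.1% and 54.4% on chromosome 18 (DTNA), and 55.4% and 55.7% on chromosome 6 (RIPOR2). The gained share of H2A.Z at RIPOR2, 57.1%, was thus near that of its chromosome. The nearest lost region of either mark lay 1590.1 kb upstream and 1255.9 kb downstream of the 5′ TSS of ZNF608. For DTNA these distances were 914.1 and 511.3 kb, and for RIPOR2 1016.3 and 270.8 kb. MAPRE2, which encodes a microtubule end-binding protein and starts in the downstream flank of DTNA, had both marks gained, with 5.64 for H2A.Z and 12.7 for H2A.Zac, beside unchanged regions. ARMH2 and ENSG00000282804, near RIPOR2, had no region at a TSS.

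Paralogs and partners of the 3 genes were looked up at their own TSSs. ZNF609 had gained H2A.Zac with 11.7 and unchanged H2A.Z. Among the 15 genes of the DTNA list, 7 had a gained and 5 a lost H2A.Zac region at a TSS, 3 of them both, and 4 had no region of either mark. Over all genes, 41.6% had gained and 22.4% lost H2A.Zac at a TSS, and 9.34% lost H2A.Z, so the gained count of the list was near that of all genes. For H2A.Z in that list, DMD (dystrophin) and UTRN (utrophin) had gained regions with 4.77 and 6.64, and DTNBP1 (dysbindin) and SGCB (a sarcoglycan) had lost ones with 5.05 and 3.65. DTNB, the paralog of DTNA, was unchanged for both marks. Among the 5 genes of the RIPOR2 list, RHOA and RHOC had gained H2A.Zac, with 8.47 and 7.41, RIPOR1 lost H2A.Zac with 7.71 and RIPOR3 lost H2A.Z with 7.28, and RHOB had no region.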

How the data were processed

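The authors aligned reads to hg38 with Bowtie2 2.4.5, called peaks with MACS2 2.2.7.1 (deepTools 3.5.1 and bedtools 2.30.0 are also in the submitters' processing notes), merged replicates and compared WT with ΔTRRAP by bdgdiff. They kept regions with at least 25% of their length in peaks reproducible between replicates. The deposited score of each region is the authors' log10 likelihood ratio. The 6 lists were read as they are. Genes, exons and TSSs came from GENCODE release 44, later than the release in the paper, and sequence from the hg38 genome given with it. Bdgdiff can split a peak, and 51 of the 152 regions overlap a region of the same mark in another class, so regions are not peaks. Overlap means 25% of the length. Wilson intervals came from scipy 1.17.1, with Python 3.11.15, pandas 2.3.3 and numpy 2.4.6. Overlaps were checked against bedtools 2.31.1 (0 of 3000 regions differed) and motif search on planted motifs (0 of 280 missed). The members and lists were chosen with earlier results of these data known. Named genes are the members, genes with a TSS in their loci, the 5 next in rank, the paralogs and partners, and a list of K562 erythroid markers. STC2 was named after its values were seen. Alternatives were other flanks, cutoffs, widths, overlaps and TSSs. Inputs and gene expression were not analysed here. Some results are not reported here.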

Additional observations from a re-analysis of the deposited data

How the results depend on the processing

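Of 68 alternative values, 61 stayed within the interval or the 1.5-fold range of the reported one. Many of the 61 could not have moved. The loci of ZNF608 and DTNA held no lost region. Every alternative that takes a part of these loci or measures them in another way therefore gives a gained share of 100%. The tally is thus not a measure of how stable those shares are. No paired analysis was possible because the replicates were merged in the deposited lists, and for the same reason no replicate could be left out. The gained share of H2A.Z at RIPOR2 (57.1%) became 100% with flanks of 10 kb (2 of 2 regions) and with a cutoff of 10 (1 of 1). That of H2A.Zac (87.5%) became 100% with flanks of 10 kb (7 of 7), flanks of 50 kb (11 of 11) and a cutoff of 10 (9 of 9). These alternatives hold fewer regions and leave out the lost ones. At DTNA, flanks of 200 kb brought in lost regions. The gained share there became 88.2% for H2A.Z (15 of 17) and 88% for H2A.Zac (22 of 25). The number of the 3 genes among the first 3 by promoter ratio was 2 with every TSS, 1 with the canonical TSS and 0 with the widest gained region, where ZNF608, DTNA and RIPOR2 ranked 165, 479 and 515. It was 3 with the 5′ end of each gene, an alternative chosen after seeing the data. Depth is unknown, and region counts carry counting error only.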

Other observations

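Genes that mark K562 cells were mixed in class at their TSSs. H2A.Zac was gained at TAL1, an erythroid transcription factor, with a ratio of 7.28, and HBG2 and TFRC had gained and lost H2A.Zac regions. KLF1 was unchanged for both marks. GATA1 had no region of either mark at a TSS. Regions of a histone variant do not show expression, which was not analysed here.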
